A study of Arabidopsis thaliana with 4 samples.

Results

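The early light-induced protein genes of Arabidopsis thaliana, ELIP1 (AT3G22840) and ELIP2 (AT4G14690), were followed in rosette leaves of wild-type plants and of an AOX1a antisense line. They were read by 2 of the 22810 probe sets of an Affymetrix ATH1 array, ELIP1.258321_at and ELIP2.245306_at, where the gene symbol stands before the point and the identifier of the probe set after it. They were picked by identifier under a rule that uses no measured value, although earlier results of these data were known when it was written, and no table used here ties further probe sets to genes. A probe set is a group of short oligonucleotides that together read a transcript, and its signal is a scaled intensity.

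Both genotypes had 2 arrays, and every array carried leaf RNA pooled from several plants. Wild type 1 was a pool of 7 plants and wild type 2 a pool of 9. Antisense 1 was a pool of 9 plants and antisense 2 a pool of 8. The antisense plants were a transformed line of the accession Col-0, named AS12, in which a viral promoter that is active in most tissues (35S CaMV) drives an antisense copy of AOX1a (At3g22370), the gene of a mitochondrial alternative oxidase. The wild-type labels name no accession. All plants grew at 23 °C on unfertilized potting mix, in days of 14 h light at a photon flux of 350 µmol per m2 and s, and leaves were taken late in the morning, 21 days after sowing. A difference between the genotypes is thus a difference between wild type and 1 transformed line. The AOX1a transcript and leaf marker transcripts are not analysed here, so the labels were not checked against them.

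Early light-induced proteins are nuclear-encoded relatives of the light-harvesting antenna proteins and sit in the thylakoid membranes of the chloroplast, where they bind chlorophyll and carotenoids. Their transcripts are generally low in leaves adapted to moderate light and rise transiently when light exceeds what photosynthesis can use, in UV-B light, in the cold and during greening, in part through the photoreceptor CRY1 and the transcription factor HY5. They are used for that reason as a reading of light stress in the chloroplast. The alternative oxidase can dispose of reducing power that the chloroplast exports.

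Neither ELIP transcript passed the test for a difference between the genotypes, and for both genes the antisense arrays lay on either side of at least 1 wild-type array. The pools of the antisense line differed from each other more than the genotypes did, and they did so in opposite directions for the 2 genes. Antisense 1 held the highest ELIP1 signal and the lowest ELIP2 signal of the 4 arrays, while antisense 2 held the highest ELIP2 signal.

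ELIP1 gave a signal of 2223.5 in wild type 1, 3139.6 in wild type 2, 4122.5 in antisense 1 and 2699.5 in antisense 2. Antisense 1 was above both wild-type arrays, and antisense 2 fell between them, so the groups overlapped. Mean signals were 2682 ± 648 in the wild type and 3411 ± 1006 in the antisense line (SD, n = 2). The log2 signal was 0.34 higher in the antisense line (SE 0.27, 95% interval -0.33 to 0.999), which is 1.26-fold with an interval from 0.797-fold to 1.999-fold. The adjusted p was 0.99995 (limma, Benjamini-Hochberg over 13648 probe sets) and the unadjusted p from the same limma fit was 0.263. This limma interval rests in part on the spread of other probe sets, and the ELIP1 pools alone could give a wider one. Within it the antisense line could hold from 0.797 to 1.999 times the ELIP1 signal of the wild type. In whole leaves, fewer cells that express a gene and less transcript per cell cannot be told apart.

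ELIP2, the paralogue of ELIP1, gave a signal of 541.5 in wild type 1, 596.9 in wild type 2, 388.3 in antisense 1 and 1186.9 in antisense 2. The wild-type arrays lay close together, with antisense 1 below both of them and antisense 2 above both. Mean signals were 569.2 ± 39.2 in the wild type and 787.6 ± 565 in the antisense line (SD, n = 2). The log2 signal was 0.26 higher in the antisense line (SE 0.49, 95% interval -0.94 to 1.45), a mean of 1.19-fold with an interval from 0.523-fold to 2.73-fold. The SD of the log2 signal was 0.099 in the wild type and 1.14 in the antisense line. The fit takes a common spread for both genotypes and draws in part on other probe sets, so the pools of ELIP2 alone could give a wider interval. Its adjusted p was 0.99995 and its unadjusted p 0.621, both from limma.

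**Figure D1:**
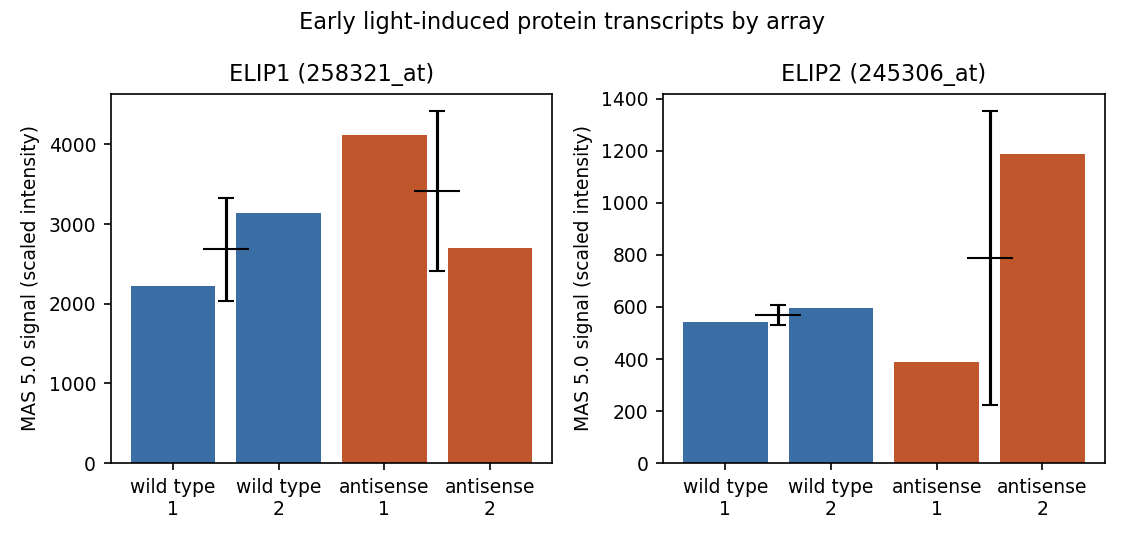
Signal (scaled intensity, axis from 0) of ELIP1 and ELIP2 on each of the 4 arrays, with wild type in blue and antisense in orange; the black marks between the bars are the mean and SD of each genotype (n = 2). The ELIP1 bars of the genotypes interleave, and the ELIP2 bars of the antisense line, at 388.3 and 1186.9, lie on both sides of the wild-type bars.

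The background of this comparison was a fit in which limma called 0 of 13648 probe sets (0%) at an adjusted p of 0.05 and 379 (2.78%) at an unadjusted p of 0.05. The groups did not overlap in 26.8% of the tested probe sets, and ELIP1 and ELIP2 were not among them. Both ELIP differences were above 0, as were those of 44% of the tested probe sets. Their median was 0.30 log2 units, against -0.03 for all tested probe sets. A difference at least as large as that of ELIP1, in either direction, occurred in 15.1% of them and one at least as large as that of ELIP2 in 24.4%. The size of neither genotype difference was thus unusual on these arrays.

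The 4 single comparisons of an antisense with a wild-type array show how the means arose. For ELIP1, antisense 1 was 1.85 times wild type 1 and 1.31 times wild type 2, and antisense 2 was 1.21 times wild type 1 and 0.860 times wild type 2. Antisense was the higher in 3 of these 4 comparisons. For ELIP2, antisense 1 was 0.717 times wild type 1 and 0.651 times wild type 2. Antisense 2 was 2.19 times wild type 1 and 1.99 times wild type 2. The sign of the ELIP2 ratio was therefore set by which antisense pool was read and not by which wild-type pool it was set against.

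Leaving out single arrays moved both differences, with the lone array of a genotype assumed to vary like the others. For ELIP1 the log2 difference was 0.09 when wild type 1 was dropped and 0.03 when antisense 1 was dropped. It came to 0.59 without wild type 2 and to 0.64 without antisense 2. For ELIP2 it was 1.06 without antisense 1, and without antisense 2 it turned to -0.55. Each of these fits left 1 genotype with a lone array, so only the sizes of the differences are given and no call is drawn from them.

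**Figure D2:**
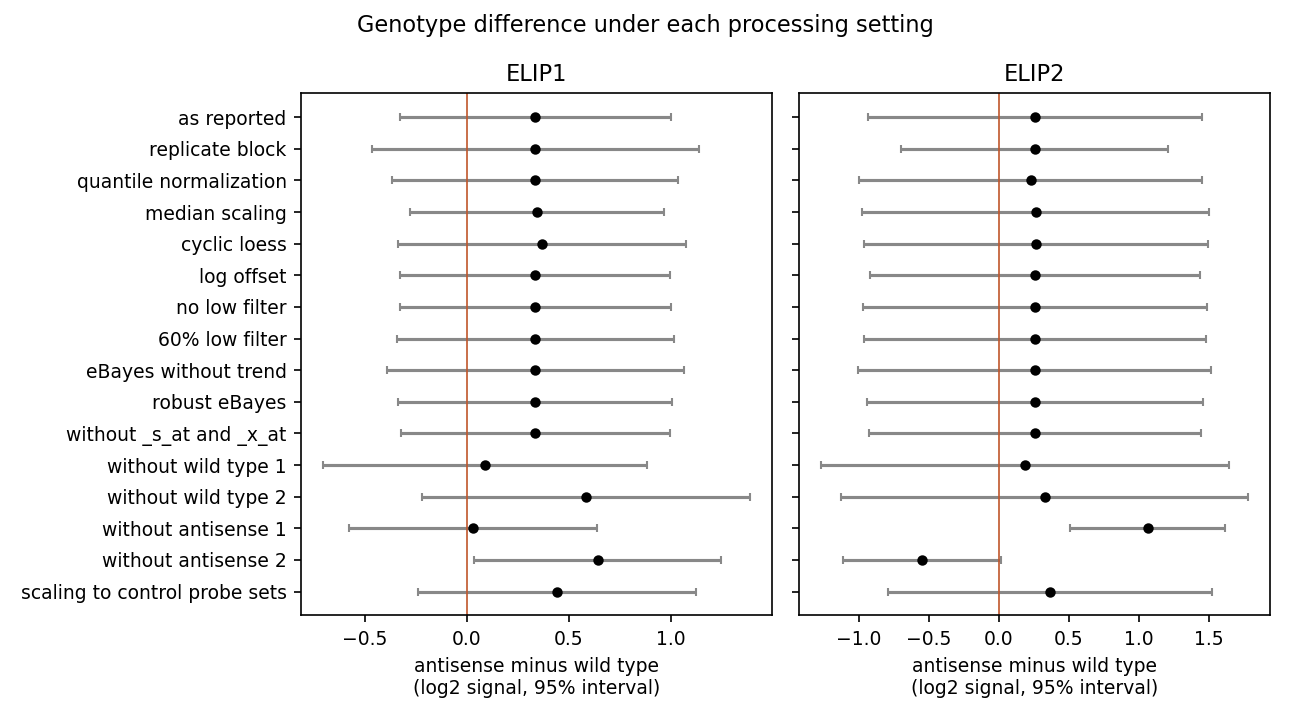
Antisense minus wild type in log2 signal for ELIP1 (left) and ELIP2 (right) under 16 settings of the processing, with points for the limma estimate and bars for its 95% interval; the vertical line marks no difference. The points stay near 0.34 and 0.26 until an array is left out, and the ELIP2 point moves to 1.06 or -0.55 when either antisense array is removed.

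Within a genotype, ELIP2 differed 3.06-fold between the antisense pools and 1.102-fold between the wild-type pools. A difference between the antisense pools of at least that size was seen in 0.74% of the tested probe sets (101 of 13648), in either direction, and 0.0806% (11 probe sets, ELIP2 included) had antisense 2 above antisense 1 by as much. The wild-type difference was an ordinary one, which 66.4% of the probe sets matched or exceeded. ELIP1 differed 1.53-fold between the antisense pools, with antisense 1 the higher, and 1.41-fold between the wild-type pools, with wild type 2 the higher. At least as large a difference was seen in 16.4% of the probe sets between the antisense pools and in 17.2% between the wild-type pools. Antisense 1 was above antisense 2 by at least the ELIP1 ratio in 9.86%. Over all 4 arrays the highest ELIP2 signal was 3.06 times the lowest, a span that 2.21% of the probe sets reached, and for ELIP1 it was 1.85 times, which 13.5% reached. The SD of the antisense line in ELIP2 therefore rests on 2 pools that stood far apart compared with most other tested probe sets. How far ELIP2 usually varies between pools was not measured.

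**Figure D3:**
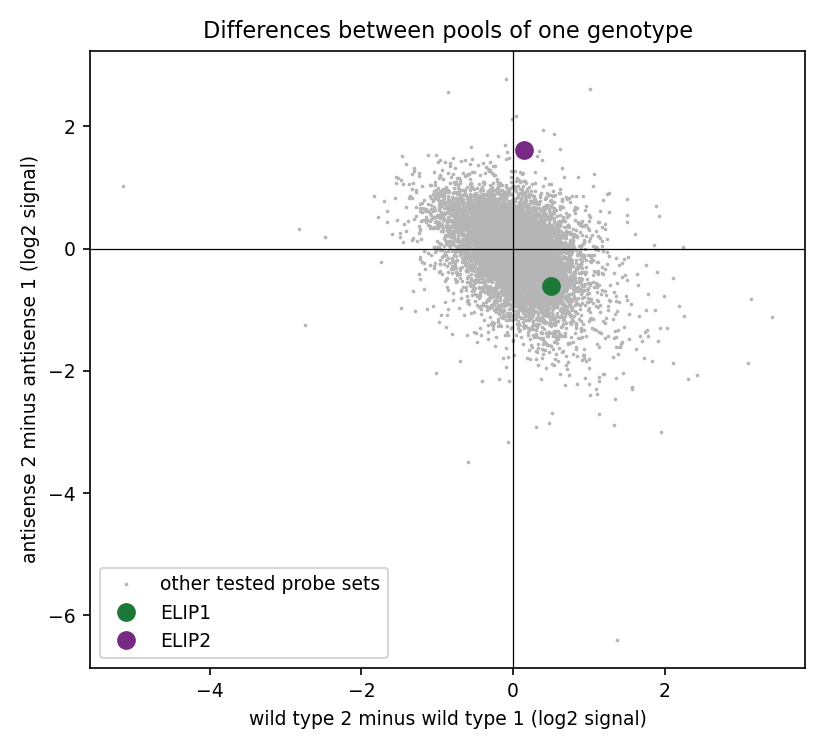
Each point is a tested probe set, placed by the log2 signal of wild type 2 minus wild type 1 (horizontal) and of antisense 2 minus antisense 1 (vertical). ELIP1 (green) lies within the cloud, and ELIP2 (purple) lies at its upper edge, where antisense 2 was 3.06-fold above antisense 1 while the wild-type pools were 1.102-fold apart.

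The genes did not follow each other across the arrays. From its own mean over the 4 arrays, the log2 signal of ELIP1 was off by -0.42 in wild type 1, 0.08 in wild type 2, 0.47 in antisense 1 and -0.14 in antisense 2. The log2 signal of ELIP2 was off by -0.20, -0.06, -0.68 and 0.93 on the same arrays in that order. Wild type 1 was below the mean for both genes, and the antisense arrays had opposite signs for them. The log2 ratio of ELIP2 to ELIP1, taken within an array so that the scaling of the array drops out, stood at 0.22 in wild type 1 and -0.14 in wild type 2, relative to its mean over the arrays. It stood at -1.15 in antisense 1 and at 1.07 in antisense 2. The genotype means of this ratio differed by -0.08 (antisense minus wild type, two-sided exact permutation p = 1, n = 2 per genotype, where the smallest possible p is 0.333). The spread of the ratio lay between the antisense pools and not between the genotypes.

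The order of the arrays also differed between the genes. In ELIP1, wild type 2 and antisense 1 were both above wild type 1 and antisense 2, as in 27.9% of the tested probe sets, and 49.8% had these pairs apart in either direction. The pairs are also the pools of 9 plants against those of 7 and 8. In the quality sheet the share of probe sets called present was 56.2% and 57.3% in the pair with higher ELIP1 and 55.5% and 55.9% in the other. Signal from the 3' end over that from the 5' end, a ratio that rises as RNA degrades, was computed from the control probe sets of the signal table. For ubiquitin it was 3.16 and 3.45 in the pair with higher ELIP1 (wild type 2 and antisense 1) and 4.68 and 3.82 in the other (wild type 1 and antisense 2); the quality sheet prints these 4 values under the heading actin. Of 6 such ratios, 3 parted the arrays into these pairs. Among the others, the first actin and first GAPDH designs read highest in antisense 1, at 5.40 and 1.72, the array with the highest ELIP1 signal. The part of pool size or RNA integrity in the ELIP1 values was not tested.

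In ELIP2, both arrays numbered 2 were above both arrays numbered 1, although the gap between wild type 1 and wild type 2 was small. Of the tested probe sets, 12.3% had this order, and 23.3% had these pairs apart in either direction. The array background followed the same order, at 48.58 in wild type 1, 51.81 in wild type 2, 47.93 in antisense 1 and 53.16 in antisense 2. The lowest background thus went with the lowest ELIP2 signal and the highest background with the highest signal. The noise value ran the same way, from 1.82 in antisense 1 to 1.94 in antisense 2. The scale factor was 4.54 and 4.34 on the arrays numbered 1 and 4.07 and 4.18 on those numbered 2. Of the 6 ratios of 3' over 5' signal, 2 parted the arrays by number as well. The first actin design read 4.745 in wild type 1, 4.15 in wild type 2, 5.40 in antisense 1 and 4.11 in antisense 2, so its highest value fell on the array with the lowest ELIP2 signal and its lowest value on the array with the highest. The first GAPDH design read 1.66, 1.47, 1.72 and 1.57 on the same arrays in that order. All the other ratios went the opposite way between the antisense pools, each being higher in antisense 2 than in antisense 1. The second GAPDH design read 1.17 in antisense 1 and 1.28 in antisense 2, its highest value. The part of background, noise, scale factor or RNA integrity in the ELIP2 values was not tested.

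The tested probe sets whose pattern over the 4 arrays came nearest to each gene were found by the root mean square difference of log2 signals, each centred on its own mean. For ELIP1 these were 256567_at, at 0.019 log2 units, and 253053_at, at 0.021. Their log2 signals differed between the genotypes by 0.37 and 0.32. Within 0.2 log2 units of ELIP1 lay 1251 tested probe sets. For ELIP2 the nearest were 253285_at, at 0.12 log2 units, and 247443_at, at 0.15. Probe set 253285_at read 122.8 and 153.2 in the wild type and 85.0 and 243.7 in the antisense line, and 247443_at read 957.6 and 944.6 against 813.1 and 1967.3. Within the same limit of ELIP2 lay 7 probe sets. The distance is not scaled for the size of the swing, and the root mean square of the centred pattern itself was 0.33 log2 units for ELIP1 and 0.59 for ELIP2, so these counts depend on amplitude as well as on shape. ELIP1 and ELIP2 were 0.80 log2 units from each other. Genes are not named for these probe sets, because no table used here pairs them.

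**Figure D4:**
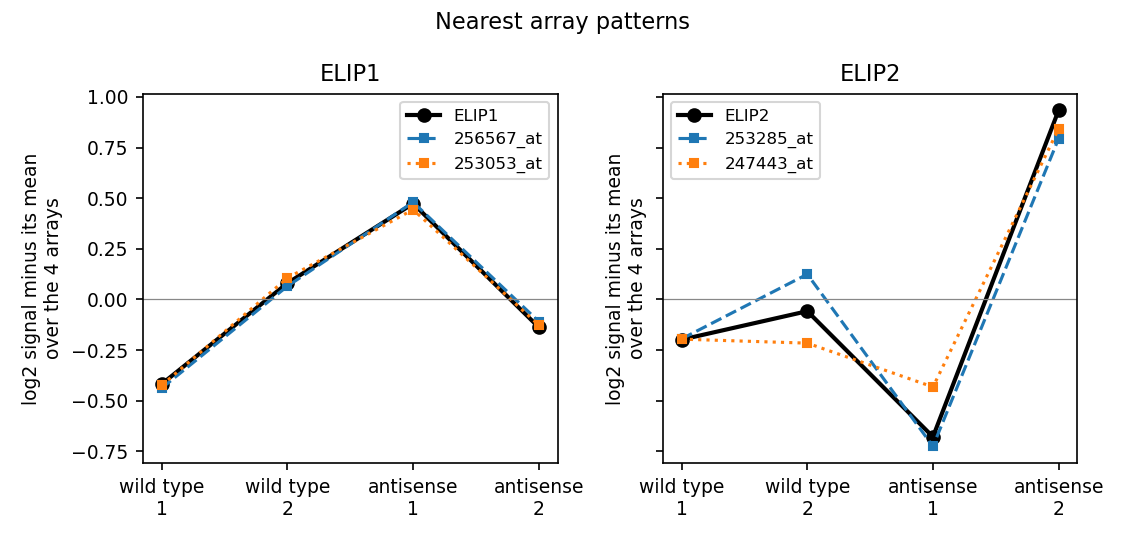
Log2 signal minus its mean over the 4 arrays for ELIP1 (left) and ELIP2 (right), each with the 2 tested probe sets nearest to it; the lines join the arrays only to guide the eye. ELIP1 peaks in antisense 1 (0.47) and ELIP2 in antisense 2 (0.93), where antisense 1 is its lowest array (-0.68).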

How the data were processed

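The authors, per the labels' descriptions, pooled RNA of leaves over 7 to 9 plants, made labelled cRNA with Affymetrix components and had signals computed with MicroArray Suite 5.0. The deposited values are linear signal intensities that the authors had already scaled, since with 2% trimmed from either end every array averaged 500.05. The deposited quality sheet gives further values per array on scales of their own. A genome build was not given in the sources used here, so coordinates and sequences are not printed.

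Intensities were log2-transformed. The 64 control probe sets and the 40% of the other 22746 with the lowest mean log2 signal were left out, and both ELIP probe sets passed. The genotypes were compared with limma 3.58.1 in R 4.3.3 (lmFit, eBayes with an intensity trend), with p-values adjusted by Benjamini-Hochberg and called under 0.05. Simulated data with known changes were used to test the fit. Precision is limited by the number of arrays, and the median 95% interval reached 0.55 log2 units to either side. Nothing in the labels ties the pools to separate growth experiments, so p-values refer to spread between pools. For each gene limma weighs its own spread, with 2 residual degrees of freedom, against that of other probe sets, with 4.25. The limma intervals thus rest in part on other probe sets, and can be narrower than the pools of that gene alone would give.

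Members, lists and tests were chosen with earlier results of these data known. The genes named are the 2 ELIP genes, and the probe sets of like pattern are the 2 nearest to each. Lists of light-response, photoprotection, antenna and leaf marker genes were planned and not computed, because no table used here pairs probe sets with genes. Nothing in the labels ties equal replicate numbers together, and deviations from the genotype means correlated at -0.42 between arrays of equal number, across probe sets. The alternatives are named in the closing section; a crossed pairing and a scaling to control probe sets were chosen after seeing the data.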

Additional observations from a re-analysis of the deposited data

How the results depend on the processing

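The alternatives were a replicate block, 3 normalizations, a log offset, no filter and a 60% filter, eBayes without a trend or robust, fewer probe sets, a threshold of 0.1, each array left out and the 2 added later. The ELIP1 difference kept its direction under all 17, from 0.03 to 0.64 log2 units, and ELIP2 under 16 of 17. Many of these could not move the difference of a gene, so its direction under them was fixed in advance. They are the replicate block, the filters, the eBayes options, the fewer probe sets, the threshold and the crossed pairing. Without antisense 2, ELIP2 was at -0.55, and leaving out single arrays gave it -0.55 to 1.06. Leaving out single arrays gave ELIP1 0.03 to 0.64. With all 4 arrays kept, no alternative gave either gene a limma adjusted p below 0.05, and the lowest was 0.587 for ELIP1 and 0.968 for ELIP2. The replicate block left both values at 0.34 and 0.26 and changed no call, with 0 probe sets called. Scaling to 16 actin, GAPDH and ubiquitin control probe sets moved the median of all tested probe sets by 0.11, to 0.08, and gave 0.44 for ELIP1 and 0.36 for ELIP2. Relative to that median both were as before, at 0.36 and 0.28, which was fixed because this scaling shifts all probe sets of an array equally. The count of 0 probe sets called became 1 under quantile normalization, median scaling, cyclic loess, at a threshold of 0.1 and without the _s_at and _x_at sets, 2 with the log offset of 8.1, and 0 to 5 when single arrays were left out. A crossed pairing of the arrays (wild type 1 with antisense 2), added after seeing the data, called 44. The cause was not tested. With 2 arrays per genotype, differences smaller than the printed intervals were not detectable. Larger ones could also be missed, because calls were adjusted over all tested probe sets and the intervals were not. Sharing of signal between these paralogues was not tested.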
